A study of Mus musculus with 12 samples.

Results

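The comparison described here is that of 3 p66High aggressive with 3 p66Low aggressive mammary tumours, over all genes of one table of raw read counts. Of 39017 genes in the table, 19370 had enough reads to be tested in these 6 tumours and the 6 parental tumours of the same series. The tumours were grown from NIC cells, mouse breast cancer cells that express ErbB2 and lack p66ShcA, placed in the fourth mammary fat pad, in FVB/N females. The mice were 8 to 12 weeks old and received 250000 cells in PBS and matrigel. The p66High cells constitutively overexpress p66ShcA and the p66Low cells do not. The aggressive populations of each were explanted after 2 rounds of growth in mice, and the parental populations were not. RNA came from bulk tumour, so each library mixes tumour cells with the host's stromal, vascular and immune cells. In such samples fewer cells of a type and less RNA per cell cannot be told apart. Whether each aggressive population is 1 pool of explanted cells is not stated, and no label ties each tumour to a mouse of its own. The titles of p66High aggressive replicates 1 and 2 share a number and differ in a letter, as do those of p66High parental replicates 1 and 2, so each pair may come from 1 mouse. With each pair summed to 1 sample, 3130 genes were called in the aggressive comparison described below, in place of 4077. The p-values therefore measure only the spread between these tumours.

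The gene Shc1 encodes 3 adaptor proteins that carry signals from receptor tyrosine kinases such as ErbB2. Its longest product, p66ShcA, has an additional amino-terminal region and is also known for roles in oxidative stress and mitochondria. Interferons switch on a set of antiviral genes and the genes that load and display peptides to T cells. Many of them carry an interferon-stimulated response element, near the start of transcription. The tumour suppressor p53 drives genes that halt the cell cycle, repair DNA or start apoptosis.

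The promoters of 4 genes are printed because nearly all interferon genes fell in this comparison. Each is the 250 bases before the RefSeq start (build GRCm38.p6), 5′ to 3′ on the gene's strand. Capitals mark the core of the interferon-stimulated response element, GAAA, 2 bases of any kind and GAAA again, searched on both strands with no other motif. The first 2 genes are antiviral genes and the last 2 serve antigen presentation and T cell attraction. They are the 2 called members with the smallest p that hold a match in each of the lists described below. Trim30a lies on the minus strand (chr7:104465194-104465443), as do Oas3 (chr5:120777660-120777909) and Cxcl10 (chr5:92348890-92349139). B2m lies on the plus strand (chr2:122147437-122147686).
Trim30a: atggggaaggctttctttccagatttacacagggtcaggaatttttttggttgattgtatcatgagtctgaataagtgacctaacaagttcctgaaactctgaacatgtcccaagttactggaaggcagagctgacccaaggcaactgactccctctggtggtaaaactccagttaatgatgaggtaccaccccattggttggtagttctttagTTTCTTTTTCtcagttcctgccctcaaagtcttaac
Oas3: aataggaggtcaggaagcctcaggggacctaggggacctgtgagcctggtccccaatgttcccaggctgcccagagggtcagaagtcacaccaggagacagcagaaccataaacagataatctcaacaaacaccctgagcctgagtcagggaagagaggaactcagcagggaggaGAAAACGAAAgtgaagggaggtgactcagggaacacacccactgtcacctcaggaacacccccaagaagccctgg
B2m: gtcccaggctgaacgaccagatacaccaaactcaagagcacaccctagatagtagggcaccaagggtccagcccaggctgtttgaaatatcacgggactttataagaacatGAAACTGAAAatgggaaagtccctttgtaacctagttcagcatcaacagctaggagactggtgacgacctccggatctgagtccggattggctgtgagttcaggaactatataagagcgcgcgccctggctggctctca
Cxcl10: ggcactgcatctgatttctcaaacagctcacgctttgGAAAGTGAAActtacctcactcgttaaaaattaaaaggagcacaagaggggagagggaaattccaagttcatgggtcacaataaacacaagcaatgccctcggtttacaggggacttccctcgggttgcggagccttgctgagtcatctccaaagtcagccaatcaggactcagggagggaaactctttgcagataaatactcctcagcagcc

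The match begins 36 bases before the start in Trim30a, 75 in Oas3, 139 in B2m and 213 in Cxcl10. It was found in 9 of 21 type I interferon genes with a promoter in the table (42.9%) and in 10 of 26 genes of the interferon gamma and antigen presentation list (38.5%). Of all 27025 genes with a promoter, 936 (3.46%) held it, as did 1 of 19 p53 target genes (5.26%). These are counts of letters in a window and say nothing of binding.

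Total counts were 17.4 to 71.8 M (mega-counts) in the p66Low aggressive and 24.7 to 38.4 M in the p66High aggressive tumours. Replicates of a group all differed by more than sampling noise, with a chi-square of at least 15.9 for each degree of freedom. Levels are given as CPM (reads per 1 M counts of the library, with TMM scaling), in the order of replicates 1, 2 and 3. Differences are p66High minus p66Low on the log2 scale with their standard error (SE) from the fit. In the p66Low aggressive group 2 libraries stood apart, with marker genes of lymph node stroma summing to 172 and 244 CPM in replicates 1 and 2. In replicate 3 of that group this sum was 2.20 CPM, and the p66High aggressive tumours had 0.157 to 0.787 CPM. It was 57.3 CPM in p66High parental replicate 3 and at most 3.65 CPM in the other 5 parental tumours. Most list counts below are therefore also given without these 3 libraries, a fit in which p66Low aggressive replicate 3 is alone in its group and is assumed to vary like the other groups.

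Genes differed in number and in size mainly towards lower levels in p66High aggressive tumours. By edgeR's quasi-likelihood test 4077 genes (21% of those tested) passed an adjusted p of 0.05. Of these 1728 (8.92% of genes tested) were higher and 2349 (12.1%) lower in p66High. At least 2-fold changes were seen for 424 of the higher and 1552 of the lower genes. The 3 tumours of one group did not overlap those of the other for 3926 of the called genes, against 38.2% of all genes tested. With the 3 lymph node libraries left out, 1075 genes (5.29%) passed, 334 higher (1.64%) and 741 lower (3.65%). Of these, 1021 were also called in the same direction with all 12 tumours, 316 higher and 705 lower, and none in the opposite direction. The count of calls also fell to 2438 without p66Low aggressive replicate 2 alone, and the higher calls to 1054 without p66High aggressive replicate 3. With scaling by library size alone 32.7% of called genes were higher, against 42.4% with TMM.

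B cell and lymph node stroma genes are counted apart from these. All 8 tested stroma genes had a negative difference and 4 passed, as did 17 of 18 B cell genes, all lower in p66High. Of all genes tested, 12.1% were lower. Cr2, the complement receptor of follicular dendritic and B cells, was at 37.1, 51.7 and 0.0999 CPM in the p66Low and at 0 counts in the p66High tumours. Over the group this is at least 795-fold lower, taking 3 counts over the group as the floor. Ccl19, a chemokine of the T cell zone, was at 8.60, 10.9 and 0.0571 CPM against 0, at least 171-fold lower. In both genes p66Low replicate 3 sat near the p66High tumours, and the difference lay in replicates 1 and 2. Without the 3 libraries 1 of 11 tested B cell genes and 0 of 3 stroma genes passed by edgeR's test. The B cell gene that passed was Cd72, at 11.8, 22.0 and 14 CPM against 1.04, 1.41 and 1.25 CPM (difference -3.70, SE 0.47, adjusted p = 0.000512). Its value without the 3 libraries was -3.49 (adjusted p = 0.00883).

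**Figure D1:**
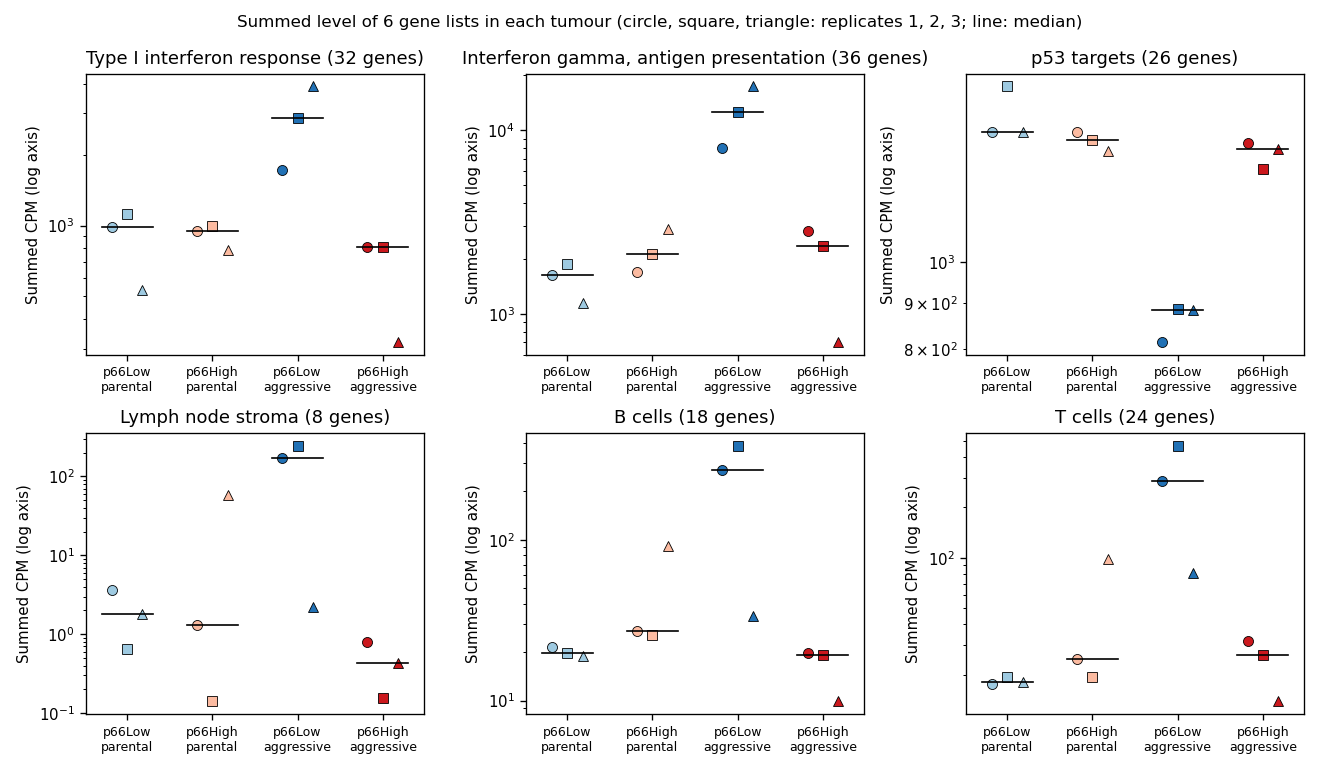
Each panel shows the summed CPM (log axis) of the tested genes of one list in each of the 12 tumours, by group, with the group median as a line. Lymph node stroma and B cell genes are high in p66Low aggressive replicates 1 and 2 only within that group, whereas both interferon lists are highest in replicate 3 and p66High aggressive replicate 3 is lowest. p53 target sums are 815 to 886 CPM in p66Low aggressive tumours and 1271 to 1573 CPM in the other 9.

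Shc1 (ENSMUSG00000042626, mm10 chr3:89418443-89430027) was at 61.0, 65.3 and 69.9 CPM in p66Low aggressive and at 237, 246 and 774 CPM in p66High aggressive tumours. The groups did not overlap, and p66High replicate 3 was about 3 times as high as the other p66High tumours. The difference was 2.68 (SE 0.38, adjusted p = 0.000941). It was 2.60 without the 3 lymph node libraries, where it missed the threshold (adjusted p = 0.0602). Counts per gene do not separate p66ShcA from the other Shc1 products. Erbb2, the receptor that drives these cells, did not pass, at 50.6, 57.5 and 73.4 CPM against 66.4, 73.0 and 68.1 CPM (difference 0.19, SE 0.18, adjusted p = 0.514).

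Of 26 tested genes of Shc adaptors and ErbB signalling, 3 rose and 3 fell (23.1% called, against 21% of all genes), with a median difference of 0.07 against 0.02 over all genes tested. Without the 3 libraries 0 rose and 2 fell by edgeR's test. Among receptors, Erbb4 was at 3.23, 0.805 and 1.57 CPM in p66Low and at 0.152, 0 and 0 CPM in p66High aggressive tumours (difference -4.75, SE 0.79, adjusted p = 0.0021). Among ligands, Egf was lower, at 8.44, 7.43 and 17 CPM against 4.26, 2.24 and 2.46 CPM (-1.87, adjusted p = 0.00684). Tgfa was higher, at 32.6, 30.2 and 31.5 CPM against 63.3, 56.6 and 142 CPM (1.47, adjusted p = 0.0205). Nrg1, which binds ErbB3 and ErbB4, was also higher (1.29, adjusted p = 0.0217), but its groups overlapped. Tgfa and Nrg1 did not pass without the 3 libraries (adjusted p = 0.254 and 0.109), nor without p66Low aggressive replicate 2 alone. Erbb4 and Egf did (adjusted p = 0.0132 and 0.016).

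Genes switched on by ERK, the kinase downstream of Shc proteins, had 6 of 20 higher (against 8.92% of all genes) and 0 lower in p66High by edgeR's test, with a median difference of 0.48. Dusp4, a phosphatase that acts on ERK, was at 11.7, 18.7 and 17.3 CPM against 40.4, 43.0 and 51.8 CPM. Its difference was 1.49 (SE 0.18, adjusted p = 0.000395). The others that rose were the feedback inhibitor Spred1 (0.49), the receptor Epha2 (0.78), the ETS factors Etv5 (0.61) and Etv1 (0.73), and Ier3 (1.22). Without the 3 libraries Dusp4 alone of the 20 passed (1.4, adjusted p = 0.0135), and the list's median was 0.39.

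Among coding genes outside the immune lists that passed with and without the 3 libraries, did not overlap and reached 2 CPM, the 15 highest and 15 lowest are described next. Many were below 1 CPM in one of the aggressive populations. On the higher side stood the transcription factor genes Sox14, Hoxa10, Onecut2 and Tcf24, the RNA-binding protein gene Igf2bp2, the collagen gene Col10a1 and several genes known from neurons. On the lower side stood the transcription factor genes Tlx3, Sox2, Sox11, Lef1 and Tox2. They were chosen for passing both fits, so that is not a result.

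Brinp3 (ENSMUSG00000035131, chr1:146494760-146902472), a gene of the nervous system, was at 0.208, 0.155 and 0.2 CPM in p66Low and at 117, 116 and 76.7 CPM in p66High aggressive tumours. Its difference was 9.12 (SE 0.49, adjusted p = 4.27e-06), and the 6 tumours fell into 2 tight sets. Sox14 (ENSMUSG00000053747, chr9:99874106-99876170) had 0 counts in all 3 p66Low tumours and was at 5.56, 7.27 and 6.77 CPM in p66High. This is at least 319-fold higher over the group. Bspry was at 0.990, 1.18 and 0.771 CPM against 63.4, 62.1 and 54.4 CPM (5.94, adjusted p = 8.4e-05). These 3 genes were also higher in p66High than in p66Low parental tumours, by 7.18, 5.04 and 4.94.

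Igf2bp2, which binds the Igf2 messenger RNA among others, was at 2.50, 4.47 and 5.12 CPM in p66Low and at 60.9, 67.7 and 95.2 CPM in p66High aggressive tumours (4.17, SE 0.30, adjusted p = 2.01e-05). It led a list of 23 tested IGF and insulin signalling genes of which 6 rose (against 8.92% of all genes) and 0 fell. Igfbp4, which binds IGFs outside the cell, was at 104, 140 and 93.7 CPM against 312, 224 and 316 CPM (1.34, adjusted p = 0.0012). Among the others were the receptor substrate Irs1 (0.93), the IGF2 receptor Igf2r (0.71) and the factor Foxo3 (0.73). Only Igf2bp2 and Igfbp4 of these 6 passed without the 3 libraries (3.88 and 1.62). Irs1 lies on chromosome 1, whose genes were shifted as a whole, as described below.

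Hoxa10, a homeobox gene of body patterning, was at 2.29, 1.55 and 2.78 CPM in p66Low and at 30.5, 29.3 and 29.9 CPM in p66High aggressive tumours. The difference was 3.76 (SE 0.25, adjusted p = 1.54e-05). In parental tumours it was at 0.648 to 1.22 CPM in all 6, and the difference between the 2 comparisons was 3.57 (adjusted p = 0.000761). Col10a1, a collagen known from growth plate cartilage, was at 1.25, 1.01 and 1.07 CPM against 6.67, 7.74 and 16.1 CPM (3.21, adjusted p = 0.000222). In parental tumours it was lower in p66High (-1.88, adjusted p = 0.00373), and the 2 comparisons differed by 5.10 (adjusted p = 0.000464).

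Sox11 (ENSMUSG00000063632, chr12:27334264-27342574), a factor of developing neurons, was at 60.7, 17.9 and 49.3 CPM in p66Low and at 0.508, 0.982 and 0.604 CPM in p66High aggressive tumours. The difference was -5.95 (SE 0.51, adjusted p = 7.82e-05). Sox2 (ENSMUSG00000074637, chr3:34650405-34652461), a factor of stem cells, was at 2.61, 5.02 and 8.41 CPM against 0.0508, 0 and 0 CPM. On 963 against 2 counts, the p66Low level was between 78.0 and 2337 times that of p66High (95% counting interval). Both were below 1 CPM in all 6 parental tumours. Of 15 tested Sox genes 5 rose, among them Sox4 (0.75) and Sox8 (1.34), and 2 fell, against 8.92% higher and 12.1% lower of all genes. With the 3 libraries left out 2 rose and 2 fell, and Sox4 did not pass (0.51, adjusted p = 0.126).

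Tlx3 (ENSMUSG00000040610, chr11:33200752-33203589), a homeobox gene, was at 4.06, 3.47 and 3.85 CPM in p66Low and had 0 counts in the p66High aggressive tumours, at least 112-fold lower. Its neighbour Ranbp17 (ENSMUSG00000040594, chr11:33211795-33513746), a nuclear transport receptor gene, was at 22.1, 16.7 and 18.4 CPM against 0.330, 0.786 and 0.129 CPM. That difference was -5.52 (SE 0.37, adjusted p = 1.54e-05). The 2 genes, which lie next to each other in these coordinates, showed the same order of groups in parental tumours, with differences of -9.20 and -4.53. Slc35d3, of the solute carrier family, was at 28.7, 15.1 and 26.6 CPM against 0.381, 0.628 and 0.518 CPM (-5.54, adjusted p = 6.1e-06). It showed no call in parental tumours (0.13, adjusted p = 0.817), and the 2 comparisons differed by -5.67 (adjusted p = 0.000142). Lef1, a Wnt pathway factor that T cells also express, was at 15.1, 20.2 and 5.25 CPM against 0.406, 0.157 and 0.0863 CPM (-5.83, adjusted p = 0.00861). It followed the lymph node libraries in its order within p66Low, and missed the threshold with the stroma level as a covariate (adjusted p = 0.0547).

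The other 9 genes on the higher side were Ppp1r36, Gabrr1, Onecut2, Olah, Dlgap1, Hs3st3a1, Tcf24, Fam181b and Fmn2, with differences of 3.21 (Fmn2 and Fam181b) to 5.66 (Ppp1r36). On the lower side the other 9 were Dcaf12l2, Nudt11, Clic6, Zfp612, Gabra4, Tox2, Stac2, Rhox4b and Reep1. Dcaf12l2 was at least 60.8-fold lower, and the counting interval of the ratio of Nudt11 was 53.2 to 1596. The remaining 7 ranged from -5.05 (Reep1) to -7.02 (Clic6). Tox2 and Reep1 had mean levels of 8.47 and 15.3 CPM in p66Low and 0.118 and 0.465 CPM in p66High aggressive tumours.

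**Figure D2:**
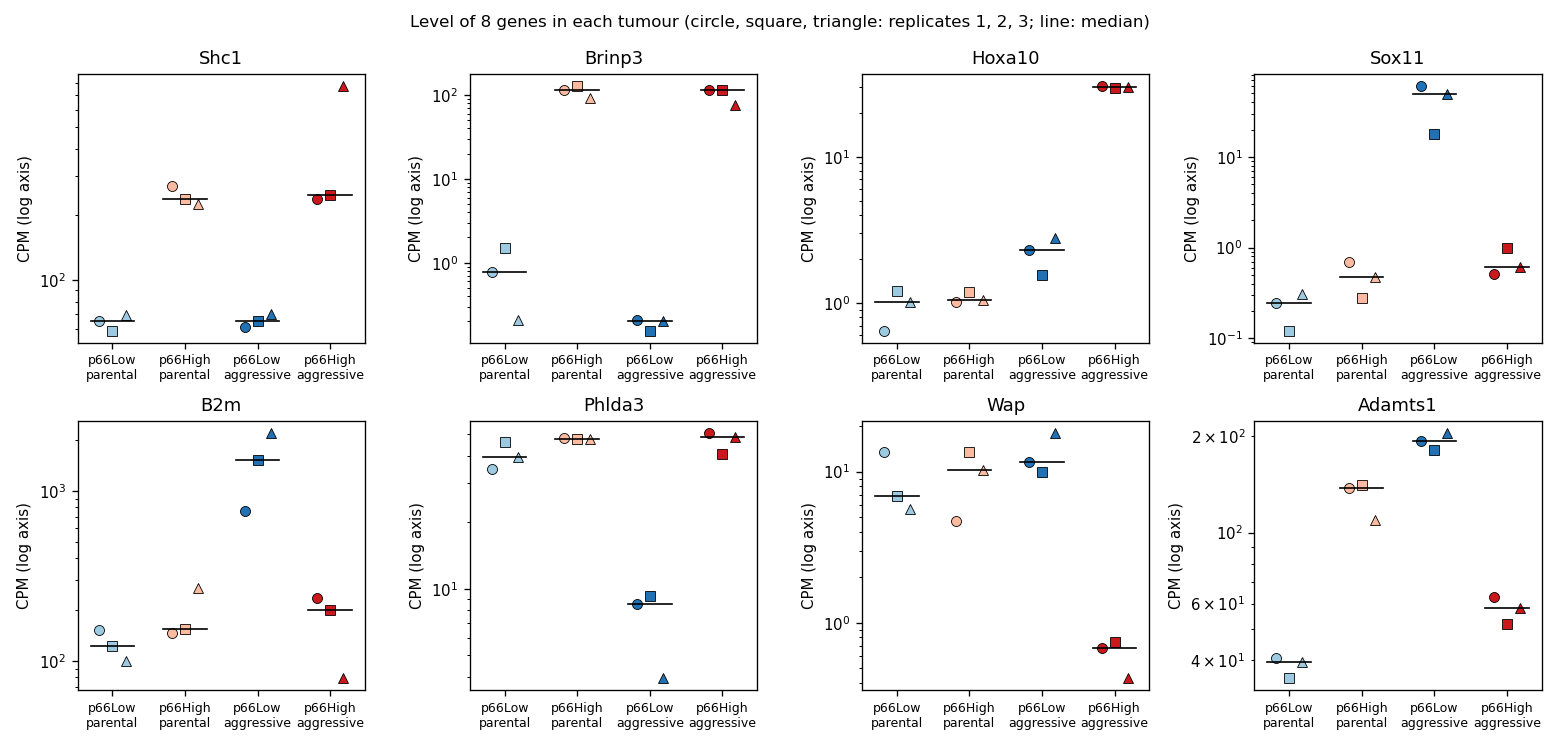
Each panel shows the CPM (log axis) of one gene in the 12 tumours, by group, with the group median as a line. Shc1 and Brinp3 separate p66High from p66Low in both populations, Hoxa10 is high only in p66High aggressive and Sox11 and B2m only in p66Low aggressive tumours, and Adamts1 has opposite orders in the 2 populations.

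Interferon response genes were lower in p66High aggressive tumours almost without exception. All 32 genes of the type I interferon list fell, with a median difference of -3.16, and 34 of 36 genes of the interferon gamma and antigen presentation list fell, with a median of -2.79. The background is 12.1% of genes lower and a median of 0.02. The 2 that did not pass were Cxcl9, a T cell chemokine, and Ido1 (adjusted p = 0.0559 and 0.0736). In all 68 genes of both lists the 3 p66High tumours lay below the 3 p66Low tumours, against 38.2% of all genes without overlap. Without the 3 lymph node libraries the medians were -3.65 and -3.11. The p66Low group of that fit is replicate 3 alone, the highest p66Low tumour in 57 of these 68 genes.

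B2m (ENSMUSG00000060802, chr2:122147686-122153083), the light chain of class I molecules whose promoter is printed above, was at 760, 1526 and 2181 CPM in p66Low and at 235, 200 and 79.2 CPM in p66High aggressive tumours. The difference was -3.12 (SE 0.46, adjusted p = 0.00113). Every p66Low tumour was above every p66High tumour by at least 3 times. The transporter Tap2, which carries peptides to class I molecules, was at 124, 179 and 213 CPM against 61.2, 59.3 and 35.3 CPM (-1.73, adjusted p = 0.00103). Ciita, the master activator of class II genes, was at 64.1, 74.2 and 67.0 CPM against 15.5, 8.64 and 5.09 CPM (-2.80, adjusted p = 0.00052). H2-DMb1, which helps to load class II molecules, fell by 3.10 (adjusted p = 0.00101). Irf1, a transcription factor induced by interferon gamma, was at 136, 153 and 183 CPM against 57.2, 54.7 and 31.7 CPM (-1.72, adjusted p = 0.000497).

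Among antiviral genes, Trim30a was at 41.0, 73.6 and 67.2 CPM in p66Low and at 10.1, 8.13 and 2.46 CPM in p66High aggressive tumours (-3.13, SE 0.40, adjusted p = 0.000547). Oas3, an enzyme that senses double-stranded RNA, was at 7.24, 21.6 and 29.5 CPM against 0.964, 0.943 and 0.345 CPM (-4.67, adjusted p = 0.000759). Oas2 (-3.99), Ifit2 (-3.18) and Oas1b (-2.89) fell with it. Members of the Oas, histocompatibility and Rhox4 families have near-identical copies, and how reads shared by copies were counted is not given in the sources used here, so single members are uncertain. Cd274, which encodes PD-L1, and the chemokine gene Cxcl10 were chosen after their values were seen. Cd274 was at 18, 15.1 and 18 CPM against 3.25, 3.85 and 1.38 CPM (-2.58, adjusted p = 0.00267), and Cxcl10 at 11.9, 10.4 and 14.1 CPM against 1.80, 1.53 and 0.431 CPM (-3.25, adjusted p = 0.00293). Ifng itself was at 0.511 to 1.13 CPM in p66Low and at most 0.236 CPM in p66High aggressive tumours and did not pass (adjusted p = 0.0841).

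The order within groups was the same for most of these genes. In 57 of 68 the highest p66Low tumour was replicate 3, which has few lymph node genes, and in 60 of 68 the lowest was replicate 1. In 67 of 68 the lowest p66High tumour was replicate 3, which had the highest Shc1 of its group (774 CPM). That tumour was also lowest of its group in the macrophage and fibroblast sums (344 and 1857 CPM). The same held for the B cell, T cell, natural killer, dendritic cell, neutrophil, endothelial, adipocyte and skeletal muscle sums. This tumour was not lowest in the lymph node stroma, plasma cell or mast cell sums. No link between these levels was tested. Summed over the type I list, levels were 1714, 2857 and 3900 CPM in p66Low and 809, 810 and 320 CPM in p66High aggressive tumours. Parental tumours lay between 531 and 1117 CPM in both groups. The gamma list summed to 8016, 12611 and 17316 CPM against 2829, 2327 and 702 CPM, with 1147 to 2879 CPM in the parental tumours. The 3 p66Low aggressive tumours lay above the other 9 in both sums. No gene of either list was called by edgeR in parental tumours, where 8.08% of all genes were. The test of the difference between the 2 comparisons passed for 51 of the 68 genes, against 12.4% of all genes tested.

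Markers of immune cells moved with these lists, and their part in the interferon result was not tested. The counts of genes called lower with all 12 tumours compare with 12.1% of all genes. T cell genes summed to 290, 467 and 80.4 CPM in p66Low and 31.9, 26 and 13.8 CPM in p66High aggressive tumours, and 22 of 24 were called lower. Cd3g, part of the T cell receptor complex, was at 11.7, 22.3 and 4.81 CPM against 0.914, 0.786 and 0.173 CPM (-4.32, adjusted p = 0.00621). Without the 3 libraries 3 of 24 T cell genes passed, with a median of -2.07, and with the stroma level as a covariate 0 passed by edgeR's test. With that covariate 32 of 32 type I and 24 of 36 gamma list genes passed. Natural killer and cytotoxic genes did not follow the lymph node libraries: they summed to 34.6, 43.4 and 39.2 CPM in p66Low and 10.7, 4.71 and 0.992 CPM in p66High. Of 14 tested, 11 fell, and Gzma, a granule protease, was at 2.08, 1.95 and 2.20 CPM against 0.634, 0.196 and 0.0863 CPM (-2.65, adjusted p = 0.00475). Of these 14, 1 passed without the 3 libraries, the chemokine gene Xcl1 (-3.50, adjusted p = 0.0133).

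Myeloid markers were lower too. The counts here again compare with 12.1% of all genes lower, a share that the fibroblast markers given below (11.8%) did not exceed. Of 18 macrophage genes 12 fell, with a median of -0.91, and summed levels were 1178, 1393 and 803 CPM against 596, 690 and 344 CPM. Adgre1, the F4/80 antigen, was at 42.7, 51.2 and 35.6 CPM against 23, 23.6 and 14.5 CPM (-1.08, adjusted p = 0.0044), and did not pass without the 3 libraries (-0.79, adjusted p = 0.112). The integrin gene Itgax of dendritic cells was at 23.9, 37.4 and 40.4 CPM against 13.6, 10.8 and 5.91 CPM (-1.74, adjusted p = 0.00191). Of the neutrophil list, Ly6g, Camp, Ngp and Retnlg had too few reads to be tested (4, 12, 12 and 35 counts over all 12 tumours). Of 16 dendritic cell genes 12 fell, and of 7 tested neutrophil genes all 7 fell. Without the 3 libraries 3, 4 and 1 of these passed. Neutrophil sums were mostly Ltf, which mammary epithelium also makes, at 560, 1455 and 1327 CPM against 212, 154 and 43.3 CPM (adjusted p = 0.0118, and 0.0604 without the 3 libraries). Endothelial markers had 0 of 18 called by edgeR's test and fibroblast markers 2 of 17 (Tagln and Pi16), both lower and neither passing without the 3 libraries. None of 6 mast cell and 6 skeletal muscle markers passed by edgeR's test, and of 15 adipocyte markers Retn did (-4.26, adjusted p = 0.0409). Retn lost its call in 10 of 17 other settings, among them the fit without the 3 libraries (-0.50, adjusted p = 0.906). Of 7 plasma cell genes Jchain, Irf4 and Mzb1 fell, and of these Jchain alone passed without the 3 libraries (-3.64, adjusted p = 0.0301).

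**Figure D3:**
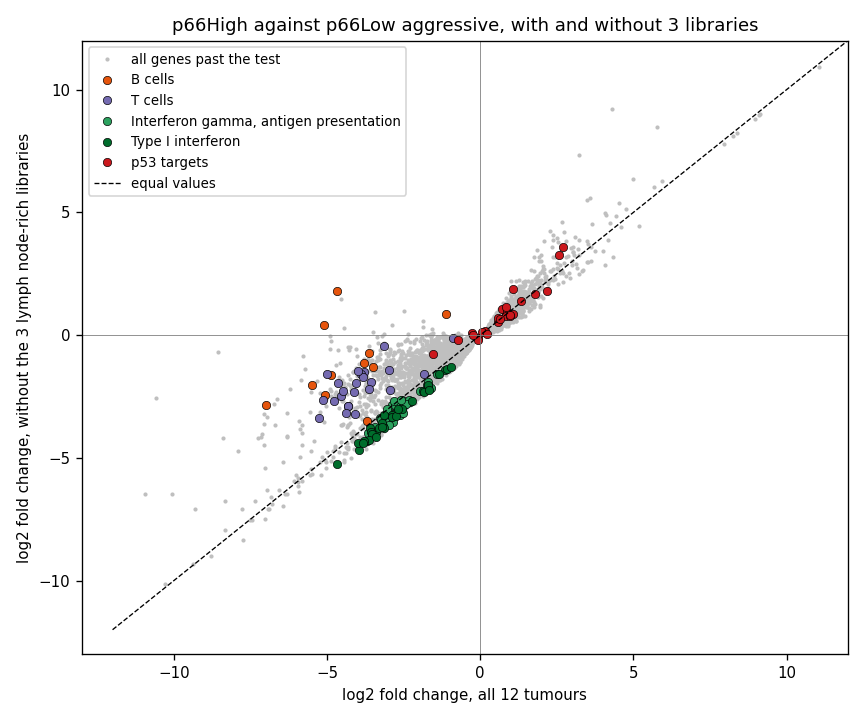
Each point is a gene, grey for all called genes and coloured for 5 lists, with its log2 difference from all 12 tumours on the x axis and the one without the 3 lymph node libraries on the y axis. Interferon genes (medians -3.16 and -3.65 for type I) and p53 targets (0.78 and 0.78) lie near the dashed line of equal values, whereas most B cell and T cell genes (medians -4.07 and -2.07 for T cells) move towards 0.

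NF-kB and inflammatory genes were lower in 13 of 25 cases and higher in 1, against 12.1% lower and 8.92% higher of all genes. Birc3, an inhibitor of apoptosis induced by NF-kB, was at 35.7, 49.9 and 30.8 CPM in p66Low and at 17, 18.1 and 14.1 CPM in p66High aggressive tumours (-1.24, SE 0.17, adjusted p = 0.000801). Relb, a subunit of NF-kB (-1.27), Vcam1, an adhesion molecule (-1.65), and the inhibitor Nfkbie (-2.09) also fell. Il1b, an inflammatory cytokine, was at 4.43, 5.14 and 6.72 CPM against 1.09, 1.26 and 0.604 CPM (-2.46, adjusted p = 0.00133). The 1 that rose was the neutrophil chemokine gene Cxcl5 (1.73, adjusted p = 0.0026), which was also higher in p66High parental tumours (1.41). With those libraries left out 7 were lower and Cxcl5 was higher. The immune markers given above moved with these genes, and their part was not tested.

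Targets of p53 were higher in p66High aggressive tumours. Of 26 tested, 15 rose and 1 fell, with a median difference of 0.78, against 8.92% of all genes higher. Ccng1, cyclin G1, was at 88.6, 96.3 and 89.2 CPM in p66Low and at 182, 163 and 163 CPM in p66High (0.89, SE 0.08, adjusted p = 7.88e-05). Phlda3 (ENSMUSG00000041801, chr1:135766119-135769136), an inhibitor of AKT, was at 8.55, 9.30 and 3.94 CPM against 50.7, 40.6 and 48.9 CPM (2.70, SE 0.26, adjusted p = 0.000158). Eda2r, a death receptor, was at 1.67, 2.34 and 1.06 CPM against 12.5, 8.48 and 9.36 CPM (2.58, adjusted p = 0.000175). No tumour of one group reached the range of the other in these 3 genes. Bax, which opens mitochondria in apoptosis (0.83, adjusted p = 0.000426), and the stress gene Ddit4l (1.80, adjusted p = 0.000343) rose too. The 1 that fell was the death receptor gene Fas (-1.55, adjusted p = 0.00956), which missed the threshold without the 3 libraries (-0.77, adjusted p = 0.359).

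Cdkn1a, which encodes p21, and Mdm2, which degrades p53, were chosen after their values were seen. Cdkn1a was at 3.33, 3.33 and 5.41 CPM against 13.3, 15.6 and 26.7 CPM (2.18, SE 0.33, adjusted p = 0.00133), and missed the threshold without the 3 libraries (1.79, adjusted p = 0.0766). Mdm2 was at 73.1, 79.1 and 80.02 CPM against 116, 106 and 124 CPM (0.57, adjusted p = 0.00143) and likewise (0.54, adjusted p = 0.0777). Trp53 itself, in the same list, was at 20.2, 18.9 and 14.3 CPM against 32.2, 29.3 and 33.4 CPM (0.83, adjusted p = 0.0259). It lost its call in 7 of 18 other settings, among them library size scaling, single tumours left out and the fit without the 3 libraries (1.16, adjusted p = 0.0823). Of the 26 genes 9 passed without the 3 libraries and 14 with the stroma covariate, and the median was 0.78 again without the 3 libraries.

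The p53 list gave the p66Low aggressive tumours as the group apart. Its summed level was 815, 886 and 886 CPM in them and 1359, 1271 and 1340 CPM in p66High aggressive tumours. In the 6 parental tumours it was 1333 to 1573 CPM. In parental tumours 0 of the 26 were higher in p66High and 3 were lower by edgeR's test, against 3.98% and 4.1% of all genes. Their median was -0.15 there. The test of the difference between the 2 comparisons passed for 14 genes, 13 of them upwards, against 12.4% and 4.37% of all genes. Cdkn1a had opposite calls: 34.1, 56.0 and 37.6 CPM in p66Low parental against 16.1, 8.83 and 14.4 CPM in p66High parental tumours (-1.70, adjusted p = 0.00758). The 2 comparisons differed by 3.88 for Cdkn1a (adjusted p = 0.00153).

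Of 30 cell cycle genes tested, 1 passed, the replication gene Mcm6 (0.69, adjusted p = 0.048), which lies on chromosome 1 and missed the threshold without the 3 libraries (adjusted p = 0.156). The proliferation marker Mki67 was at 313, 232 and 184 CPM against 283, 253 and 267 CPM (0.14, SE 0.23, adjusted p = 0.714).

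Of 25 mammary epithelial genes 4 fell and 1 rose, a called share near the 21% of all genes. Without the 3 libraries 3 fell and 0 rose by edgeR's test. Epcam and the keratin gene Krt8, taken as examples after their values were seen, had differences of -0.22 and 0.03 (adjusted p = 0.43 and 0.926). Cldn3, a tight junction protein, was at 69.5, 88.8 and 115 CPM in p66Low and at 5.63, 22.2 and 25.2 CPM in p66High aggressive tumours (-2.38, SE 0.41, adjusted p = 0.00247). Cldn7 (-0.49), Cldn4 (-1.12) and the mucin Muc1 (-1.47) also fell, and the prolactin receptor gene Prlr rose (0.70). Muc1 and Prlr did not pass without the 3 libraries (adjusted p = 0.0572 and 0.0996). Cldn4 went the other way in parental tumours, where it was higher in p66High (2.10, adjusted p = 0.00146), and the 2 comparisons differed by -3.22 (adjusted p = 0.00185).

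Of 11 milk protein genes 5 fell (against 12.1% of all genes) and 0 rose by edgeR's test. Wap, whey acidic protein, was at 11.6, 9.91 and 17.9 CPM in p66Low and at 0.685, 0.746 and 0.431 CPM in p66High aggressive tumours (-4.38, SE 0.50, adjusted p = 0.000317). In parental tumours it ranged from 4.69 to 13.6 CPM in both groups. Lalba, alpha-lactalbumin, was at 408, 337 and 304 CPM against 110, 124 and 117 CPM (-1.58, adjusted p = 0.00152) and was also lower in p66High parental tumours (-2.43). Btn1a1, of milk fat globules (-1.71), and the casein gene Csn1s1 (-2.55) fell too. The fifth, Glycam1, is also a gene of lymph node vessels, at 90.4, 133 and 0.3 CPM in p66Low, and followed the lymph node libraries. Wap, Lalba and Btn1a1 passed without the 3 libraries, and Csn1s1 (adjusted p = 0.282) and Glycam1 did not.

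Genes of matrix and cell shape moved in both directions. The protease gene Adamts1 (ENSMUSG00000022893, chr16:85793827-85803113) was at 193, 181 and 204 CPM in p66Low and at 62.9, 51.7 and 58.2 CPM in p66High aggressive tumours. Its difference was -1.74 (SE 0.12, adjusted p = 1.54e-05). In parental tumours it was at 40.5, 35.1 and 39.5 CPM in p66Low against 137, 141 and 110 CPM in p66High, a difference of 1.75 (adjusted p = 3.82e-05). The 2 comparisons thus had opposite signs and differed by -3.49 (adjusted p = 2.42e-06). Of 22 proteases and inhibitors 6 fell (against 12.1% of all genes) and 0 rose, Timp2 (-1.15) and Mmp3 (-2.28) among them. With the 3 libraries left out 3 fell, and Timp2 and Mmp3 did not pass (adjusted p = 0.161 and 0.386). Of 29 collagen and matrix genes 4 rose and 0 fell, a called share below the 21% of all genes, and 1 rose without the 3 libraries, Col10a1. Col11a1, a fibrillar collagen, was at 752, 601 and 817 CPM against 1396, 1318 and 1816 CPM (1.06, adjusted p = 0.000839, and 0.0556 without the 3 libraries). Of 24 genes of epithelial-mesenchymal transition 2 rose, among them the factor Twist1 (0.95, adjusted p = 0.000515), and 4 fell, a called share of 25% against 21% of all genes. Twist1 was the 1 that passed without the 3 libraries, where 0 fell by edgeR's test. Ankrd1, a target of YAP, was at 2.55, 5.40 and 6.47 CPM against 0.711, 0.550 and 0.561 CPM (-2.98, adjusted p = 0.000374). Of 19 YAP targets 5 fell, Ankrd1 included, and 2 rose. Ankrd1 was the 1 YAP target that passed without the 3 libraries. These shares compare with 12.1% lower and 8.92% higher of all genes.

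Of 24 glycolysis genes 2 rose (against 8.92% of all genes), Ldhb (1.26, adjusted p = 0.000202) and Aldoc (0.65), and 1 fell, Pfkfb4 (-2.06, adjusted p = 0.000426). Aldoc did not pass without the 3 libraries (adjusted p = 0.394). In parental tumours 9 of the 24 were lower in p66High, against 4.1% of all genes, and none higher by edgeR's test. The median was -0.90 there against 0.23 here. Ldha, lactate dehydrogenase A, chosen after its values were seen, was at 1154, 1124 and 1495 CPM in p66Low and at 993, 1235 and 1422 CPM in p66High aggressive tumours (-0.05, adjusted p = 0.877). In parental tumours its difference was -1.36 (adjusted p = 0.0011), and the 2 comparisons differed by 1.31 (adjusted p = 0.00906). The difference between comparisons passed for 11 of the 24 genes, against 12.4% of all genes tested. Of 22 hypoxia genes 3 rose (against 8.92% of all genes), the MYC antagonist Mxi1 (1.34), Epas1 (0.53) and the peptide hormone gene Adm (1.59). Mxi1 and Adm did not pass without the 3 libraries (adjusted p = 0.0918 and 0.429). Epas1 did, but lost its call in 10 of 18 other settings. The sum of the list was 2104, 2285 and 3912 CPM against 2073, 3169 and 5945 CPM, so replicate 3 was the highest in both groups and the groups overlapped.

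Respiratory chain genes encoded in the nucleus rose in 9 of 32 cases and fell in 1, against 8.92% higher and 12.1% lower of all genes. Of the 9, 5 lie on chromosome 1, among them Sdhc (0.77), Ndufa10 (0.68), Ndufs1 (0.71) and Cox5b (0.67), and the 1 that fell, Atp5o (-0.53), lies on distal chromosome 16. The ATP synthase gene Atp5a1, on chromosome 18, was at 925, 864 and 930 CPM in p66Low and at 1669, 1597 and 1650 CPM in p66High aggressive tumours (0.85, SE 0.11, adjusted p = 0.000472). Sdhc, Ndufa10 and Atp5a1 were among the 4 that passed without the 3 libraries. Ppargc1a, the regulator of mitochondrial number, was at 8.49, 7.09 and 9.60 CPM against 19.9, 16.4 and 19.8 CPM (1.16, adjusted p = 0.00283) and missed the threshold without the 3 libraries (0.98, adjusted p = 0.117). Of 30 NRF2 and antioxidant genes 3 rose and 6 fell, against 8.92% and 12.1% of all genes, and 1 rose and 1 fell without the 3 libraries. Sod1, superoxide dismutase, was at 54.2, 52.0 and 57.2 CPM against 32.9, 31.1 and 27.5 CPM (-0.83, adjusted p = 0.00107) and lies on distal chromosome 16. Prdx6 (0.82, adjusted p = 0.000643) lies on chromosome 1, and Pgd (-0.98), which did not pass without the 3 libraries (adjusted p = 0.0806), on distal chromosome 4. No gene of cholesterol synthesis was called, of 23 tested by edgeR, and 3 of 18 fatty acid synthesis genes fell, 1 of them without the 3 libraries too.

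The remaining lists had calls in both directions or few calls, to be read against 8.92% higher and 12.1% lower of all genes. Of 23 Wnt genes 4 rose and 4 fell, and 1 and 1 did so without the 3 libraries. Of 22 TGF-beta and BMP genes 3 rose and 4 fell, and 1 rose without the 3 libraries. Of 25 genes of ATF4 and serine synthesis 4 rose and 3 fell, and 2 and 1 without them. Of 18 genes of the unfolded protein response 1 fell, with or without them. Of 13 mitochondrially encoded respiratory genes 2 rose, and of 12 regulators of mitochondrial biogenesis 2 rose and 1 fell, with no call by edgeR's test in either list without the 3 libraries.

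Genes of some chromosome segments moved together. On chromosome 1, 400 of 1133 tested genes were higher (35.3%, against 8.92% of all genes tested) and 125 lower. The median difference of its 766 expressed coding genes, those with a mean of at least 1 CPM, was 0.40, and 0.38 without the 3 libraries. It was 0.48 in parental tumours. Genes of chromosome 1 made up 23.1% of all higher calls. Relative to the mean of the 12 tumours, the median of these genes was -0.23, -0.20 and -0.16 in p66Low and 0.20, 0.21 and 0.20 in p66High aggressive tumours. Every p66High tumour of either population lay above every p66Low tumour.

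On distal chromosome 16, from 80 Mb to its end, 57 of 75 expressed coding genes were lower in p66High aggressive tumours (76%) and 0 higher by edgeR's test. The median difference was -0.80, which is 0.575 times the p66Low level, and -0.75 without the 3 libraries. Relative to the 12-tumour mean, the medians were 0.15, 0.17 and 0.22 in p66Low and -0.58, -0.52 and -0.60 in p66High aggressive tumours. The 6 parental tumours were at 0.14 to 0.25, so the p66High aggressive tumours alone were low. In parental tumours 1 of the 75 was lower and 7 were higher, against 4.1% and 3.98% of all genes. The difference between the comparisons passed for 47, against 12.4% of all genes. Adamts1, Clic6, Sod1, Atp5o, Mx1 and Mx2 are among the genes of this segment described here or in the interferon list.

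On distal chromosome 4, from 140 Mb, 64 of 154 genes were lower (41.6%) and 7 higher, with a median of -0.35 in aggressive and -0.20 in parental tumours. Medians relative to the 12-tumour mean were 0.09 to 0.21 in p66Low and -0.19 to -0.12 in p66High aggressive tumours. Isg15 and Pgd, which fell, lie here, as does Epha2, which rose. Outside these 3 segments, 992 of 12058 expressed coding genes were higher (8.23%) and 1666 lower (13.8%). Chromosome 15 had a median of 0.02 in aggressive and -0.42 in parental tumours. Whether any of these shifts is a change in copy number was not tested.

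**Figure D4:**
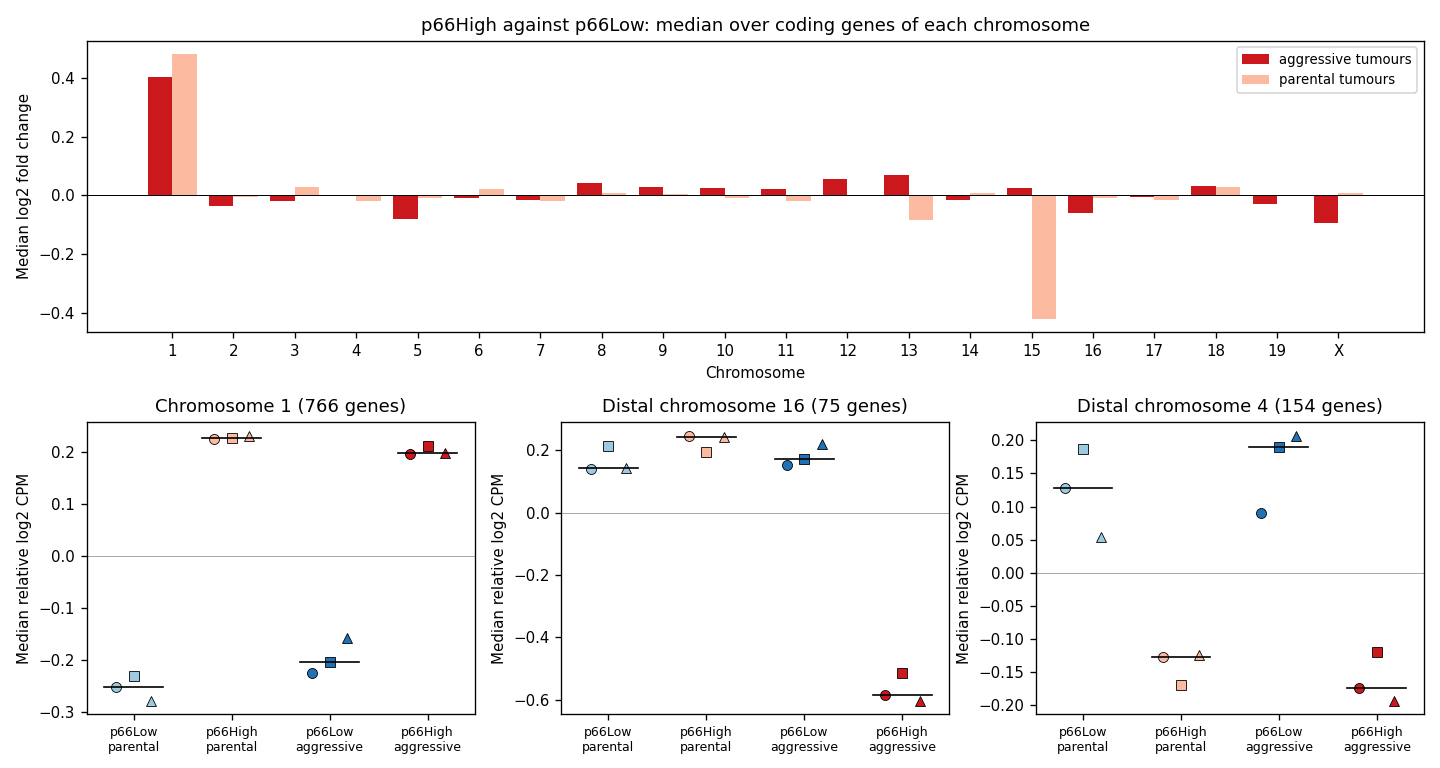
The upper bars give the median log2 difference of expressed coding genes on each chromosome in aggressive and parental tumours, and the lower panels the median level of 3 segments in each tumour relative to the 12-tumour mean. Chromosome 1 stands out in both comparisons (0.40 and 0.48), chromosome 15 in parental tumours only (-0.42), and distal chromosome 16 is low in the 3 p66High aggressive tumours.

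The aggressive and parental comparisons share no tumour and could be set side by side. In parental tumours 1565 genes (8.08%) passed, 770 higher (3.98%) and 795 lower (4.1%). A total of 596 were called in the same direction in both, which is 14.6% of the aggressive and 38.1% of the parental calls, and 111 in opposite directions. Of the 1728 genes higher in aggressive tumours 391 were also higher in parental tumours (22.6%), and of the 2349 lower genes 205 were also lower (8.73%). The test of the difference between the comparisons passed for 2395 genes (12.4%), 847 upwards (4.37%) and 1548 downwards (7.99%). Among the 4077 genes called in aggressive tumours, 1763 had a called difference. The difference passed, with the 3 libraries left out, for 335 genes.

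The extremes of the difference were of both kinds. Upwards stood Gipr (6.85), Gabrr1 (6.59), Sox14 (6.02), Dpysl5 (5.97) and Col10a1 (5.10). Gabrr1, a GABA receptor subunit, was at 0.104, 0 and 0.114 CPM in p66Low and at 2.84, 1.77 and 2.93 CPM in p66High aggressive tumours (5.19, adjusted p = 0.000985). Dpysl5, of the collapsin response mediators of axons, had opposite calls of 2.71 (adjusted p = 0.00215) in aggressive and -3.25 (adjusted p = 0.0016) in parental tumours. Gipr, an incretin receptor, did not pass in aggressive tumours, where p66High replicate 3 alone was high, at 8.11 CPM against 0.431 and 0.943 CPM. The 5 lowest were B cell and lymph node genes, among them Fcer2a, Cr2, Ccl19 and Ccl21a, each high in p66Low aggressive replicates 1 and 2 and p66High parental replicate 3.

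**Figure D5:**
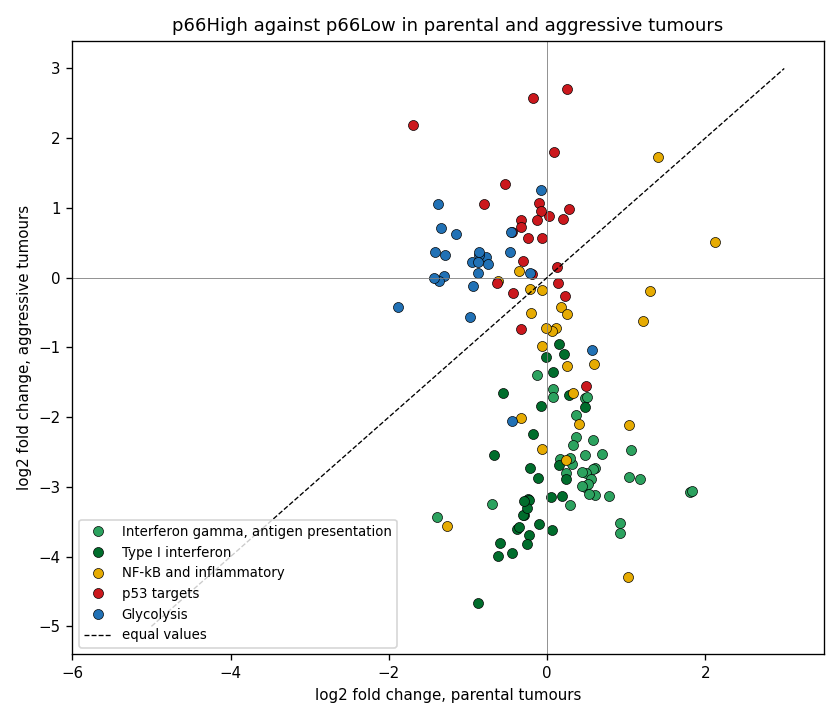
Each point is a gene of one of 5 lists, with its p66High against p66Low log2 difference in parental tumours on the x axis and in aggressive tumours on the y axis. Interferon genes lie far below 0 in aggressive tumours (medians -3.16 and -2.79) and near 0 in parental tumours (-0.22 and 0.49), p53 targets lie above 0 in aggressive tumours (median 0.78), and glycolysis genes lie below 0 in parental tumours (median -0.90).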

How the data were processed

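The authors deposited raw read counts per gene for 12 tumours, made with Trimmomatic 0.32, STAR 2.3.0e and featureCounts 1.4.4 on mm10, per the submitters' processing notes. Not given in the sources used here are the annotation, the strand setting and how multiply mapped reads were treated. The kit was a stranded one after ribosomal RNA depletion, per the labels' protocols. Positions came from GENCODE M21 and promoters from RefSeq. Counts were filtered with filterByExpr, scaled by TMM and fitted with edgeR 4.0.16 (R 4.3.3) quasi-likelihood in all 4 groups, with 8 residual degrees of freedom and Benjamini-Hochberg adjustment over all genes tested, at 0.05. Contrasts were p66High against p66Low in aggressive and in parental tumours, and their difference. The SE is the log2 difference over the root of F.

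Genes named were Shc1, Erbb2, the 15 highest and 15 lowest coding genes that passed with and without the 3 lymph node libraries, did not overlap and reached 2 CPM, up to 5 called members of each of 40 lists by p, and the 5 extremes of the difference. The comparison, gene lists and rules were chosen with earlier results of these data known. Ratios with 0 counts use a floor of 3 counts, and intervals (95%) cover counting error only. The fit was also run on simulated data, whose outcome is not reported here. Alternatives changed scaling, filter, tool (DESeq2 1.42.0, limma 3.58.1 voom), samples and covariates. Most members of the lists are given only in counts, and some results are not reported here.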

Additional observations from a re-analysis of the deposited data

Results flagged for a closer look

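Of 137 genes named above, 91 had a p66High against p66Low difference in aggressive tumours that differed from the one in parental tumours by edgeR's test of the difference itself (adjusted p below 0.05, against 12.4% of all genes tested). Most of these genes were named for passing in aggressive tumours, so their share is not a result. Values are the aggressive minus the parental log2 difference, and the groups of 3 were not tested for single outlying tumours. Interferon and antigen presentation genes had Oas3 -3.79, B2m -3.72, H2-DMb1 -3.64, Oas2 -3.37, Trim30a -3.32, Ciita -3.29, Mx1 -3.23, Mx2 -3.23, Oas1b -3.13 and Ifit2 -2.94. Further values were Cd274 -2.87, Irf1 -2.22 and Tap2 -2.21. In genes of immune cells, lymph node stroma and other host cells the values were Fcer2a -19.96, Cr2 -18.88, Ccl19 -16.53, Ccl21a -16.37, Glycam1 -14.19, Jchain -8.69, Cd3g -6.96 and Retn -6.73. Further values were Mzb1 -5.59, Xcl1 -5.20, Irf4 -5.19, Ltf -4.94, Gzma -4.80, Cd72 -3.35, Itgax -1.60, Adgre1 -1.30 and Tagln -1.23. Many of these genes were high in p66Low aggressive replicates 1 and 2 and p66High parental replicate 3, the libraries rich in lymph node genes. Without these 3 libraries Cr2 and Ccl19 had too few reads to be tested. The part of these libraries in the other values is not given here.

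Among p53 targets the values were Fas -2.04, Mdm2 0.63, Ccng1 0.86, Bax 1.15, Ddit4l 1.72, Phlda3 2.45, Eda2r 2.77 and Cdkn1a 3.88. For glycolysis, hypoxia, respiration and antioxidant genes they were Pfkfb4 -1.62, Atp5o -0.73, Sod1 -0.58, Aldoc 1.10, Ldha 1.31, Ldhb 1.34 and Mxi1 1.63. The other genes had Sox2 -9.39, Lef1 -8.66, Sox11 -7.01, Dcaf12l2 -6.80, Reep1 -6.55, Slc35d3 -5.67, Tox2 -5.08, Rhox4b -4.87 and Wap -4.50. Further values were Clic6 -4.31, Csn1s1 -3.65, Adamts1 -3.49, Cldn4 -3.22, Ankrd1 -2.98, Mmp3 -2.83, Nfkbie -2.50, Stac2 -2.41 and Il1b -2.39. Further values were Cldn3 -2.21, Vcam1 -1.98, Btn1a1 -1.95, Timp2 -1.93, Igf2bp2 -1.90, Birc3 -1.83, Muc1 -1.62, Relb -1.52 and Cldn7 -0.52. Further values were Sox4 0.72, Prlr 0.82, Twist1 0.98, Epha2 1.10, Col11a1 1.30, Sox8 1.55, Ier3 1.64, Dusp4 1.66 and Tgfa 1.87. Further values were Nrg1 2.64, Tcf24 2.73, Fmn2 3.16, Olah 3.43, Hoxa10 3.57, Col10a1 5.10, Dpysl5 5.97, Sox14 6.02, Gabrr1 6.59 and Gipr 6.85.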

How the results depend on the processing

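No paired analysis was possible because no number in the labels is shared between the groups compared: title numbers are shared only within a group, and replicates were numbered in accession order. Of the recomputed counts over all genes 66 stayed within 1.5 times and 22 did not, and of the recomputed differences of named genes 2208 kept their side of the threshold and, where called, their direction, 230 no longer passed and 11 newly passed. A minimum change of 2-fold in the test itself left 495 called genes (93 higher, 402 lower), 79 in parental tumours and 307 for the difference. Leaving out the 3 libraries left 1075 (334 and 741), 838 and 335. The covariate left 1619 (616 and 1003) and 702 for the difference. Summing tumours whose titles share a number, whose meaning is not stated, left 3130 called genes in aggressive tumours (1277 higher, 1853 lower), 908 in parental tumours and 1179 for the difference, and DESeq2 gave 2486 in parental tumours. Leaving out 1 tumour at a time gave 2438 to 4502 called genes in aggressive tumours, 976 to 1816 higher and 1462 to 2686 lower, with the lowest counts without p66Low aggressive replicate 2 and 1054 higher without p66High aggressive replicate 3. It gave 1280 to 1800 in parental tumours and 1182 to 3278 for the difference. The causes were not tested. The shallowest library held 17.4 M counts, so a gene without a call may still differ.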
